A study of Mus musculus with 29 samples.

Results

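The genes of the podocyte slit diaphragm were followed through a toxin injury of mouse podocytes: Nphs1, Kirrel, Kirrel3, Cd2ap, Magi2, Nck1, Ptpro, Trpc6 and Plce1. These 9 genes were taken by name, as all array probes whose RefSeq accession belongs to them. They have 13 probes, of which 12 passed the filter on dim probes, and all 9 genes are among the 15628 genes tested. Probes of 7 genes number 1 each, and Kirrel and Kirrel3 have 3 each. Where a gene has several, the brightest one was tested and the others are given beside it.

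RNA came from 16 male C57BL/6J Pod-hCD25T/G mice aged 8 weeks, 4 for each of day 0 (before injection) and days 1, 4 and 7 after 25 ng of LMB2 per g of body weight. LMB2 is an immunotoxin against human CD25, which mouse cells lack unless they carry the transgene. TdTomato(+) and EGFP(+) podocytes were sorted on a FACSAria, and 13 of the mice gave an array for each population. By what is known of this mouse model, rather than by its labels, TdTomato is the sign of podocytes bearing hCD25, which the toxin hits directly, and EGFP is that of neighbours it does not target. All labels give heminephrectomy before the toxin, and neither whether the day 0 mice had that surgery nor the promoter behind hCD25 is given there. Day 0 mice are other animals than the later ones, so each change over time is between mice. The EGFP groups hold 4, 3, 4 and 4 arrays at days 0, 1, 4 and 7, and the TdTomato groups 4, 4, 4 and 2. The question of the comparisons is how directly targeted podocytes and their untargeted neighbours change over the days after the toxin.

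Podocytes are joined by the slit diaphragm, a sheet of adhesion molecules between neighbouring foot processes that takes part in holding back plasma protein. Nephrin, encoded by Nphs1, and the related NEPH proteins, encoded by Kirrel and Kirrel3, span the slit. Inside the cell, CD2AP, MAGI2 and NCK1 tie them to the actin cytoskeleton and to signalling, while the phosphatase PTPRO, the calcium channel TRPC6 and the phospholipase PLCE1 act in the same foot process membrane. Inherited defects of nephrin, CD2AP, MAGI2, TRPC6, PTPRO and PLCE1 are known causes of human nephrotic disease.

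Of the spots on each array 48.2% to 65.5% were well above background and 0 were saturated. Arrays of the same group correlated at 0.956 to 0.988. Each of 16 podocyte markers was well above background on at least 1 array of each of the 8 groups. Their summed linear level, in units of the array's 75th percentile, ran from 1586 to 3952 over the arrays. Glomerular endothelial markers (13 genes) summed to 11.7 to 23.3 in TdTomato cells at day 0, to 7.80 to 75.3 at day 4 and to 61.5 and 118 at day 7, against 9.24 to 21.3 in all EGFP arrays. Tek, one of those markers, was not well above background on any EGFP array at day 7, and the other markers of that list were so on at least 1 array of every group. The part of these cells in the differences below was not tested. In bulk RNA, fewer cells of a type and less RNA per cell cannot be told apart.

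In the directly targeted cells 6 of the 9 genes fell by day 4: Nphs1, Kirrel, Cd2ap, Nck1, Ptpro and Plce1. In that comparison 57.3% of all genes were called, 35.9% lower. In the untargeted cells none of the 9 passed the test at any day, where 0.0256%, 0.595% and 7.26% of all genes were called at days 1, 4 and 7, so 0 of 9 is near the share over all genes. At day 1 the genes went separate ways in TdTomato cells, with Ptpro and Nphs1 lower, Nck1 higher and the other 6 past no threshold. In that comparison 51.8% of all genes were called, 27.9% lower and 23.8% higher. At day 7 the TdTomato mean stood above that of day 4 by 0.59 for Nphs1 and Plce1, 0.55 for Ptpro and 0.84 for Kirrel. The median difference from day 0 over all genes was likewise nearer to 0 at day 7 (-0.14) than at day 4 (-0.29). Day 7 rests on 2 arrays, and that step was not tested.

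Of the 9 genes 8 have an entry in the RefSeq promoter table (GRCm38.p6), with 10 transcript starts in all, and Kirrel3 has none there. The 250 bases before a start are shown for Nphs1, Ptpro, Nck1 and Cd2ap: Nphs1 is the core adhesion molecule, Ptpro and Nck1 parted at day 1, and the Cd2ap window holds several motif matches. All read 5′ to 3′ on the gene's strand and end at the base before the start. Capitals mark matches on either strand to CAGCTG (an E-box) or CACCC (a KLF box core).
Nphs1: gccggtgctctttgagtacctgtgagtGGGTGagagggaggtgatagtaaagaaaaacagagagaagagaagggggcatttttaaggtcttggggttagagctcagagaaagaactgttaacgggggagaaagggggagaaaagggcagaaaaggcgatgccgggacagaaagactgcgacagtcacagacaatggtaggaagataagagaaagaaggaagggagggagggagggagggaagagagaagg
Ptpro: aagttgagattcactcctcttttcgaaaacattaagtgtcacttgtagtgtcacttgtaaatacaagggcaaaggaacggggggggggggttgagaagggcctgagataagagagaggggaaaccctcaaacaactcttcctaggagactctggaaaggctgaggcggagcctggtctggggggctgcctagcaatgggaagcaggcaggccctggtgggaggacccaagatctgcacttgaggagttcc
Nck1: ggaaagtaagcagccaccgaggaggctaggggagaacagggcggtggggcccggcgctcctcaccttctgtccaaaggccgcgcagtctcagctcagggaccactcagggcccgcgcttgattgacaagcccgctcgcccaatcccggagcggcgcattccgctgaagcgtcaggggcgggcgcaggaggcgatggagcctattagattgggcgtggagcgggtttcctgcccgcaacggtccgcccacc
Cd2ap: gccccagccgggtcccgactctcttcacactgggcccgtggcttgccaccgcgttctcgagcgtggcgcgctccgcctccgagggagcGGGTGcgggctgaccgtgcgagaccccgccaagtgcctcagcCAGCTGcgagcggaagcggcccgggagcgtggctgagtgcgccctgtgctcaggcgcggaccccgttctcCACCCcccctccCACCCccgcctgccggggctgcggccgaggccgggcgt
The Nphs1 window is chr7:30459808-30460057 on the plus strand, and that of Ptpro is chr6:137252049-137252298 on the plus strand. The Nck1 window is chr9:100546135-100546384 on the minus strand, and that of Cd2ap is chr17:42876425-42876674 on the minus strand. Nck1 has a further start whose window is not shown.

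Besides those motifs, TAATTA (the core of an LMX1B element), TGCTGAC (a MAF half-site) and GCGTGGG (the core of WT1 and EGR sites) were looked for on both strands. CACCC was found in 4 of the 10 windows, and 52.0% of all 32851 RefSeq windows of that length hold it. CAGCTG was in 2 of them (13% of all windows), TAATTA in 1 (4.84%), GCGTGGG in 1 (4.30%) and TGCTGAC in 0 (3.81%). In the Magi2 window with GCGTGGG that match overlaps a CACCC match. No motif was found in 5 of the 10, those of Kirrel, Ptpro, Trpc6 and Plce1 and the Nck1 window shown. A match describes letters, not a bound site. The windows ran from 37.6% to 76.4% G and C, with a median of 52.4% over all windows.

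Nphs1 encodes nephrin, the main adhesion molecule of the slit. Values are log2 signals relative to the array's 75th percentile. In TdTomato cells the arrays read 7.79, 7.29, 7.68 and 7.65 at day 0 and 7.32, 6.91, 7.18 and 7.09 at day 1. They then read 6.25, 6.20, 6.23 and 6.41 at day 4, and 7.04 and 6.69 at day 7. Day 4 stood below every other array of the study, and day 1 overlapped day 0 by 1 pair of values. Nphs1 fell by 1.33 ± 0.17 (SE) at day 4, to a level 2.52-fold lower (adjusted p = 5.4e-07, limma, n = 4 and 4). It was lower than day 0 by less at day 1 (-0.48 ± 0.17, adjusted p = 0.019) and at day 7 (-0.74 ± 0.21, adjusted p = 0.013, n = 2). Without MC791 the day 7 value was -0.57 and missed the threshold (adjusted p = 0.19), and without MC541 the day 1 value was -0.41 (adjusted p = 0.061), as it also was without day 0 MC122 (-0.42, adjusted p = 0.061).

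In the untargeted EGFP cells Nphs1 read 7.97, 7.24, 7.43 and 7.52 at day 0 and 7.37, 6.99, 7.07 and 6.81 at day 7. Those groups overlap in the range of 7.24 to 7.37. The day 7 difference of -0.48 ± 0.17 missed the threshold (adjusted p = 0.088) and passed it without MC221 (-0.59, adjusted p = 0.045) and with the slide as a block (-0.47, adjusted p = 0.0040). The 95% interval of that difference was -0.83 to -0.14. At day 4 EGFP cells read 7.73, 7.35, 7.45 and 7.38, a difference from day 0 of -0.06 ± 0.17.

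**Figure D1:**
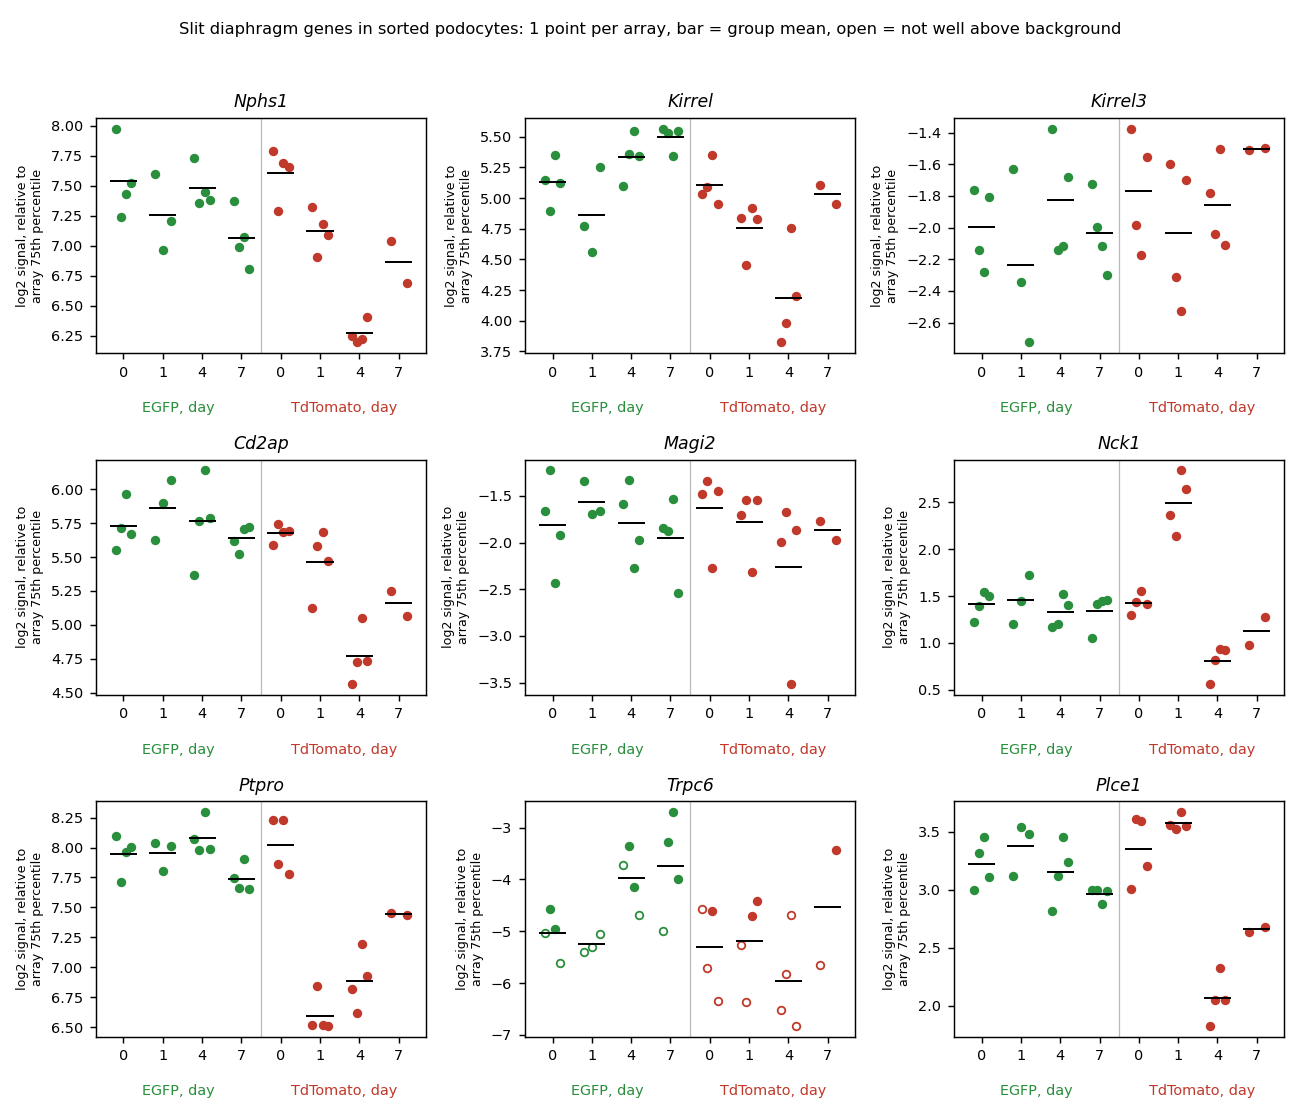
Log2 signal of the 9 slit diaphragm genes relative to each array's 75th percentile, by day in EGFP (green) and TdTomato (red) podocytes, with 1 point per array, a bar at the group mean and open points for arrays not well above background. The day 4 TdTomato arrays of Nphs1 (6.20 to 6.41), Cd2ap and Plce1 lie below all other arrays, Ptpro is low at days 1 and 4, and Nck1 is high at day 1.

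Kirrel encodes NEPH1, which binds nephrin across the slit. Its brightest probe read 5.04, 5.09, 5.36 and 4.95 in TdTomato cells at day 0 and 3.82, 3.98, 4.75 and 4.2 at day 4. All day 4 arrays lay below those of day 0, with MC822 the highest of them. Kirrel fell by 0.92 ± 0.18, or 1.89-fold (adjusted p = 0.00013). At day 1 the arrays read 4.83, 4.46, 4.92 and 4.83, all below day 0, yet the difference of -0.35 ± 0.18 did not pass (adjusted p = 0.11). It passed with the slide as a block (-0.35, adjusted p = 0.033). In EGFP cells Kirrel went from 5.15, 4.90, 5.35 and 5.12 at day 0 to 5.57, 5.53, 5.34 and 5.55 at day 7. That is 0.37 ± 0.18 more, which did not pass (adjusted p = 0.26), and the groups overlap at the value of MC824.

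The 3 Kirrel probes parted at day 7. Each was lower in TdTomato cells at day 4, by 0.92, 0.85 and 0.68 in a fit over all 38196 probes, where 46.1% of probes were called (adjusted p = 0.00026, 0.00024 and 0.014). At day 7 the probe A_52_P452569, made to the transcript NM_130867, read 0.42 and 0.93 against -0.14, -0.17, 0.13 and -0.70 at day 0. Both day 7 arrays of that probe lay above day 0, by 0.90 ± 0.27 (adjusted p = 0.031, 11.3% of probes called). The other probes, both made to NM_001170985, differed from day 0 by -0.08 ± 0.22 (adjusted p = 0.89) and 0.21 ± 0.21 (adjusted p = 0.62). At day 1 the probe A_55_P2000743 was the one to pass, at -0.57 ± 0.17 (adjusted p = 0.0083, 39.5% of probes called). Whether the probes read different transcripts was not tested.

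**Figure D2:**
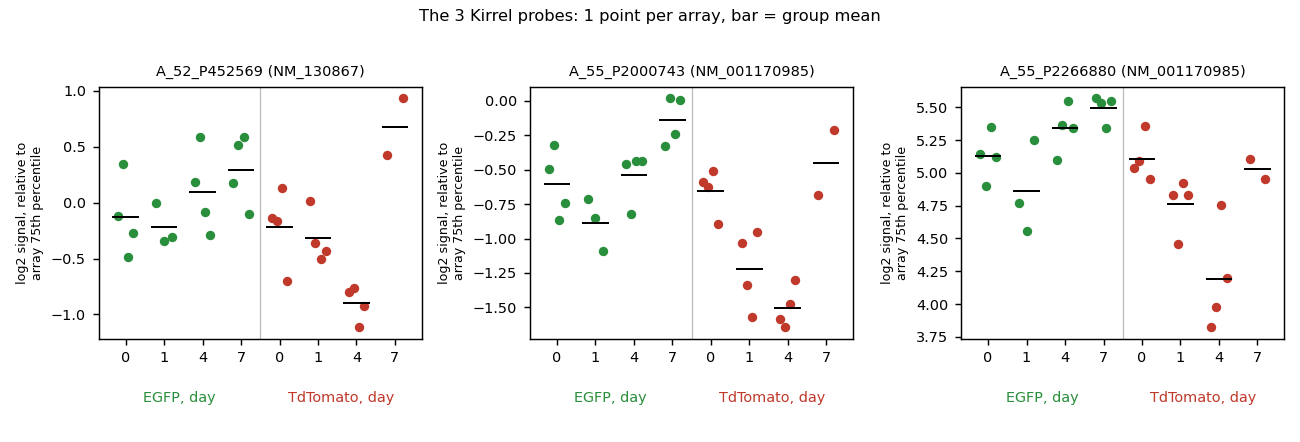
Log2 signal of the 3 Kirrel probes relative to each array's 75th percentile, by day in EGFP (green) and TdTomato (red) podocytes, with 1 point per array and a bar at the group mean; levels are not comparable between probes. All 3 were lower in TdTomato cells at day 4, and at day 7 the probe to NM_130867 stood at 0.42 and 0.93, above its day 0 arrays, while the probe at right was 0.08 below day 0.

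Kirrel3 encodes NEPH2, a relative of NEPH1. Its best probe was well above background on all 29 arrays and its group means lay between -2.23 and -1.50, with overlap at each of the 7 steps between neighbouring groups. The TdTomato arrays read -1.38, -1.99, -2.17 and -1.55 at day 0 and -1.78, -2.04, -1.51 and -2.11 at day 4. No comparison passed, and the day 4 difference of -0.09 ± 0.25 has a 95% interval of -0.60 to 0.43. Of the other Kirrel3 probes, A_55_P2133032 was well above background on 22 arrays and passed in no comparison, and A_51_P384693 was so on 0 arrays.

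Cd2ap encodes the adaptor that binds the tail of nephrin and links it to actin and to survival signals. Its TdTomato arrays read 5.59, 5.74, 5.68 and 5.69 at day 0, 5.13, 5.58, 5.69 and 5.47 at day 1, and 4.56, 4.73, 5.05 and 4.73 at day 4. Day 4 lay below all other arrays of the study. Cd2ap fell by 0.91 ± 0.15, or 1.88-fold (adjusted p = 2.7e-05). At day 7 it read 5.25 and 5.07, below every day 0 array, and the difference of -0.52 ± 0.19 missed the threshold (adjusted p = 0.054). It passed with the mouse as a random block (-0.47, adjusted p = 0.038), with the slide as a block (-0.42, adjusted p = 0.018) and with the normexp correction (-0.61, adjusted p = 0.039). In EGFP cells the 3 later days differed from day 0 by 0.14, 0.04 and -0.08, all with overlap.

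Nck1 encodes the adaptor whose SH2 domain binds tyrosine-phosphorylated nephrin and recruits actin regulators. Its TdTomato arrays read 1.30, 1.44, 1.56 and 1.42 at day 0, then 2.36, 2.14, 2.84 and 2.64 at day 1. Every day 1 array lay above all other arrays of the study. Nck1 rose by 1.07 ± 0.15 at day 1, or 2.09-fold (adjusted p = 2.6e-06). By day 4 the arrays read 0.56, 0.82, 0.94 and 0.92, below every day 0 array, and Nck1 had fallen by 0.62 ± 0.15 from day 0, or 1.53-fold (adjusted p = 0.0015). Day 7 read 0.97 and 1.27, and the difference of -0.31 ± 0.19 did not pass (adjusted p = 0.27). In EGFP cells its group means stayed between 1.33 and 1.46.

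Magi2 encodes a scaffold with many binding domains that holds nephrin and other membrane proteins together. Its TdTomato arrays read -1.48, -1.34, -2.27 and -1.45 at day 0 and -2.0, -1.68, -3.52 and -1.86 at day 4. The day 4 array of MC822 is far below the other day 4 arrays, and day 0 MC742 lies within their range, so the groups overlap. The difference of -0.63 ± 0.34 did not pass (adjusted p = 0.11) and passed without day 0 MC742 (-0.84, adjusted p = 0.048) and with the slide as a block (-0.63, adjusted p = 0.028). No other change of Magi2 over time passed.

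Ptpro encodes a receptor-type tyrosine phosphatase of the podocyte surface. Its TdTomato arrays read 8.23, 7.86, 8.23 and 7.78 at day 0 and 6.52, 6.84, 6.52 and 6.51 at day 1. All day 1 arrays lay below every day 0 array, with MC541 the highest of them. Ptpro fell by 1.43 ± 0.14, or 2.69-fold (adjusted p = 8.3e-09). At day 4 it read 6.82, 6.62, 7.20 and 6.93, still 1.13 ± 0.14 below day 0 (adjusted p = 3.4e-07), and the groups of days 1 and 4 overlap. At day 7 the arrays read 7.45 and 7.43, above days 1 and 4 and below day 0, by 0.58 ± 0.17 (adjusted p = 0.018). That call ended without MC221 (-0.59, adjusted p = 0.10), without MC791 (-0.57, adjusted p = 0.11) and without day 0 MC742 (-0.51, adjusted p = 0.051). In EGFP cells Ptpro read 8.10, 7.71, 7.96 and 8.00 at day 0 and 8.04, 7.81 and 8.01 at day 1, a difference of 0.01 ± 0.15.

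Plce1 encodes phospholipase C epsilon, which makes second messengers that raise calcium. Its TdTomato arrays read 3.01, 3.61, 3.59 and 3.21 at day 0 and 3.56, 3.53, 3.67 and 3.55 at day 1, which overlap. The day 1 difference of 0.22 ± 0.15 did not pass (adjusted p = 0.24), at the time when Ptpro was lowest. At day 4 they read 1.83, 2.05, 2.33 and 2.05, below all other arrays of the study. Plce1 fell by 1.29 ± 0.15, or 2.44-fold (adjusted p = 2.5e-07). Day 7 read 2.63 and 2.68, above day 4 and below day 0, by 0.70 ± 0.19 (adjusted p = 0.011). That call ended without MC221 (-0.67, adjusted p = 0.092) and without MC791 (-0.72, adjusted p = 0.069). In EGFP cells the day 7 arrays read 3.0, 3.0, 2.88 and 2.99, all below the lowest day 0 array by a narrow margin, and the difference of -0.26 ± 0.15 did not pass (adjusted p = 0.40).

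Trpc6 encodes a calcium-permeable channel of the foot process, and its probe was dim, well above background on 11 of 29 arrays. At day 4 the EGFP arrays read -3.71, -3.35, -4.14 and -4.69, and 2 of these 4 were well above background. On none of the 4 TdTomato arrays was it above background there (-6.53, -5.82, -4.68 and -6.82). The EGFP mean of -3.97 was 1.60-fold higher than the TdTomato group when that group was taken at -4.65, a level that the arrays could detect. That value is not a lower bound, because the EGFP mean includes arrays that were not well above background. In the limma fit, with the measured TdTomato mean of -5.96, the difference was called (adjusted p = 0.0037). That call was lost with the normexp background correction, at -0.43 (adjusted p = 0.081). In EGFP cells the day 7 arrays read -5.00, -3.27, -2.70 and -3.98 against -5.03, -4.56, -4.95 and -5.62 at day 0. The difference of 1.30 ± 0.56 did not pass (adjusted p = 0.19) and passed without both arrays of MC221 (1.72, adjusted p = 0.048).

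Counted over the gene set, changes from day 0 in EGFP cells were called for 0 of 9 at day 1, where 0.0256% of all genes were called in the limma fit. They were called for 0 of 9 at day 4 (0.595% of all genes) and 0 of 9 at day 7 (7.26%). At an unadjusted p under 0.05 those counts were 0, 0 and 3. In TdTomato cells 3 of 9 were called at day 1, 2 lower and 1 higher, against 51.8% of all genes (27.9% lower, 23.8% higher). At day 4 the count was 6 of 9, all lower, against 57.3% of all genes (35.9% lower, 21.4% higher). At day 7 it was 3 of 9, all lower, against 19.4% of all genes (8.47% lower, 10.9% higher). The median difference of the 9 was -0.21, -0.91 and -0.31 at days 1, 4 and 7, beside -0.13, -0.29 and -0.14 over all genes. All these comparisons share the 4 day 0 arrays of their population. On all 4 slides 8 of the 9 genes were lower in TdTomato cells at day 4 than at day 0, and Kirrel3 was lower on 3. The share of all genes lower on every slide was not counted. For Trpc6 the day 4 side of that was not above background, and 1 of the 4 day 0 arrays was well above it.

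**Figure D3:**
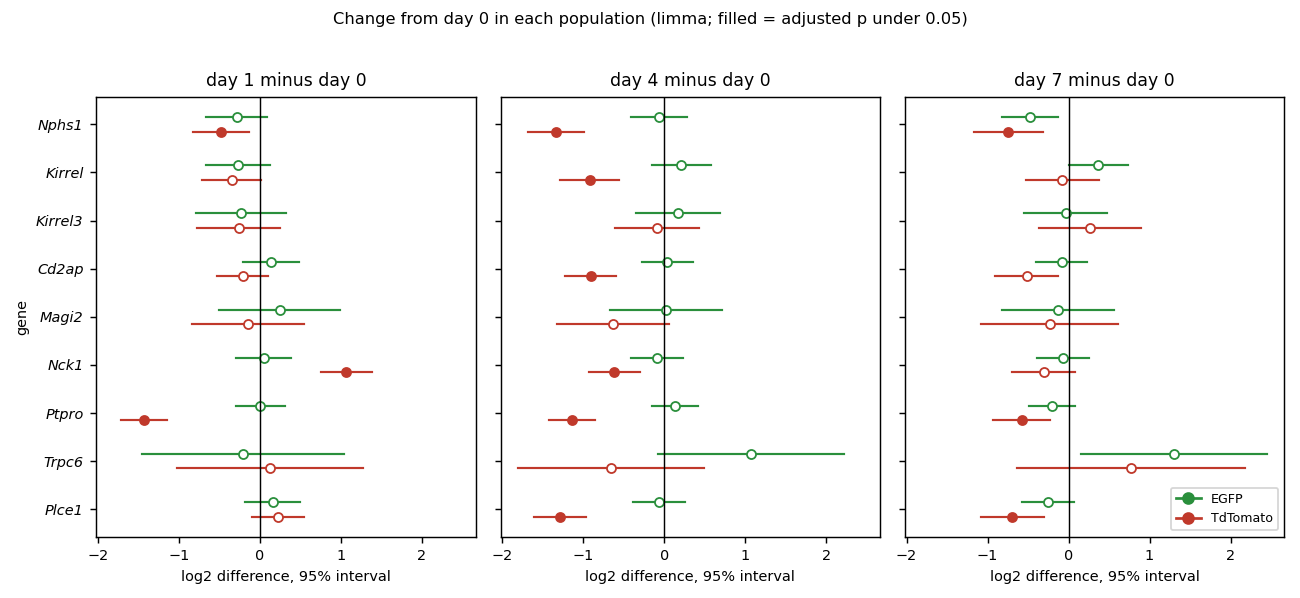
Log2 difference from day 0 for the 9 genes at days 1, 4 and 7 in EGFP (green) and TdTomato (red) podocytes, with the 95% interval from limma and filled points for an adjusted p under 0.05. The 6 filled TdTomato points of day 4 lie between -1.33 and -0.62, Nck1 stands at 1.07 on day 1, and no EGFP point is filled.

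Cells of both populations were then compared at each day. Before the toxin none of the 9 genes passed the test between TdTomato and EGFP cells (0% of all genes called by limma, and 74 genes but 0 members at an unadjusted p under 0.05). At day 1 there were 3 of 9 called, against 49.3% of all genes (25.6% lower, 23.7% higher). Ptpro was lower in TdTomato cells by 1.35 ± 0.15 (adjusted p = 7.4e-08) and Nck1 higher by 1.04 ± 0.17 (adjusted p = 1.2e-05). Cd2ap was lower by 0.40 ± 0.16 (adjusted p = 0.049), a call lost in 9 of 17 other settings. It ended without the TdTomato array of MC125 (-0.28, adjusted p = 0.18) or MC831 (-0.40, adjusted p = 0.077), or the EGFP array of MC542 (-0.30, adjusted p = 0.21) or MC541 (-0.38, adjusted p = 0.11). It also ended with normexp (-0.32, adjusted p = 0.18), quantile normalization (-0.53, adjusted p = 0.072) and no filter on dim probes (-0.40, adjusted p = 0.073). The same held with the authors' values (-0.38, adjusted p = 0.083) and with only the groups compared (-0.40, adjusted p = 0.20).

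At day 4 there were 7 of 9 lower in TdTomato cells, against 59.6% of all genes (38.6% lower, 21% higher). Besides Trpc6 they were Nphs1 (-1.21 ± 0.17), Ptpro (-1.19 ± 0.14), Kirrel (-1.15 ± 0.18), Plce1 (-1.09 ± 0.15), Cd2ap (-0.99 ± 0.15) and Nck1 (-0.51 ± 0.15, adjusted p = 0.0059). The arrays of these 6 did not overlap between the populations. The share of all genes without overlap was not counted, so that count cannot be set beside one. Magi2 passed only with the mouse as a fixed block (-0.47, adjusted p = 0.045) or with quantile normalization (-0.79, adjusted p = 0.025). The median of the 9 was -1.09, beside -0.33 over all genes. At day 7 there were 0 of 9 called, against 6.99% of all genes, with 2 of the 9 at an unadjusted p under 0.05. The lowest adjusted p was that of Cd2ap (-0.48 ± 0.19, adjusted p = 0.13), which passed with the mouse as a block (-0.41, adjusted p = 0.044).

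Within mice the same differences were seen animal by animal. At day 4 the TdTomato cells were lower than the EGFP cells of the same mouse in 4 of 4 mice for 7 of the 9 genes. Among these was Trpc6, whose TdTomato side was not above background. The share of all genes lower in every mouse was not counted. For Nphs1 the 4 differences ran from -1.48 to -0.97 with a median of -1.19. For Ptpro they ran from -1.36 to -1.06, and for Plce1 from -1.18 to -0.99. Kirrel3 was lower in 2 of the 4 mice and Magi2 in 3. At day 1 Ptpro was lower in 3 of 3 mice, by 1.52 at most and 0.97 at least, and Nck1 was higher in 3 of 3 mice, by 0.69 to 1.16. At day 7 both mice had lower Nphs1 in TdTomato cells (-0.34 and -0.30), smaller than at day 4. Day 0 differences lay on both sides of 0 for 7 of the 9 genes.

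**Figure D4:**
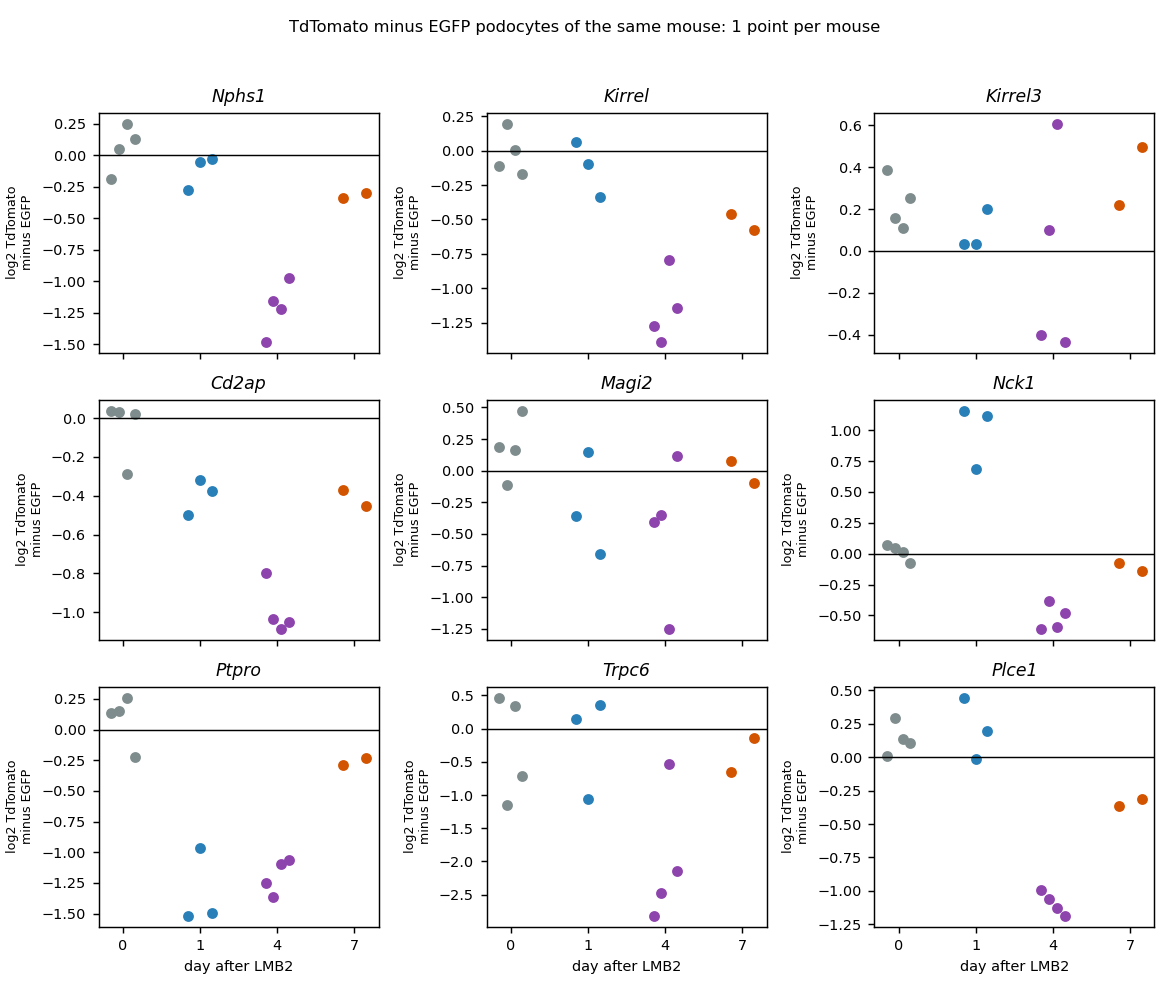
Log2 signal of TdTomato minus EGFP podocytes from the same mouse for the 9 genes at days 0, 1, 4 and 7 after LMB2, with 1 point per mouse and a line at 0. At day 4 the 4 mice lie below 0 for Nphs1 (-1.48 to -0.97), Kirrel, Cd2ap, Nck1, Ptpro, Trpc6 and Plce1, while at day 1 Nck1 lies above 0 and Ptpro below it in 3 of 3 mice.

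The interaction, the TdTomato change from day 0 minus the EGFP change, tests whether the populations responded differently. At day 1 it was called for 2 of 9 genes (38.4% of all genes, 20.1% negative and 18.3% positive): Ptpro (-1.43 ± 0.20, adjusted p = 7.5e-06) and Nck1 (1.02 ± 0.23, adjusted p = 0.00085). Cd2ap (-0.35) passed there only with the mouse as a block (adjusted p = 0.032). At day 4 it was called for 5 of 9, all negative (44.4% of all genes in either direction, 28.3% negative). These were Nphs1 (-1.27 ± 0.24, adjusted p = 0.00022), Ptpro (-1.27 ± 0.19), Plce1 (-1.23 ± 0.22), Kirrel (-1.13 ± 0.25) and Cd2ap (-0.94 ± 0.22, adjusted p = 0.0014). The Cd2ap call was lost with quantile normalization (-0.61, adjusted p = 0.12). Nck1 (-0.53 ± 0.22, adjusted p = 0.050) missed the threshold there and passed with the mouse as a block (adjusted p = 0.0028). For Trpc6, which was not well above background on any TdTomato array at day 4, no size of the interaction is given. At day 7 it was called for 0 of 9 (2.69% of all genes) and 0 members had an unadjusted p under 0.05.

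The order of the 8 group means differed between genes. TdTomato at day 4 was the lowest group for Nphs1, Kirrel, Cd2ap, Nck1, Plce1 and Magi2, whereas for Ptpro it was TdTomato at day 1 and for Kirrel3 EGFP at day 1. For Nphs1 the order ran from TdTomato day 0 (7.6 ± 0.22, SD) through EGFP day 0 (7.54 ± 0.31), EGFP day 4 (7.48 ± 0.17), EGFP day 1 (7.26 ± 0.32), TdTomato day 1 (7.13 ± 0.17), EGFP day 7 (7.06 ± 0.24) and TdTomato day 7 (6.86 ± 0.24) to TdTomato day 4 (6.27 ± 0.10). Neighbours in that order overlapped except for the last step. Cd2ap likewise had 6 of 7 steps with overlap, and Kirrel, Kirrel3 and Magi2 all 7. For Trpc6 no order is given, since it was above background on 0 arrays of EGFP cells at day 1 and of TdTomato cells at day 4. Nck1, Plce1 and Ptpro had 5 each.

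Over the 29 arrays, which share mice, slides and groups, 10 of the 36 pairs of members correlated above 0.6. The share of all gene pairs above 0.6 was not counted, so that count cannot be set beside one. Among members the highest values were those of Plce1 with Cd2ap (r = 0.81) and Nck1 (r = 0.76). The lowest was that of Cd2ap with Kirrel3 (r = -0.42). Nck1 and Ptpro stood at r = -0.33. Outside the set, the genes most like each member were Ezh1 (r = 0.95) and Arrb1 (r = 0.94) for Nphs1, Palld and Atn1 for Kirrel (r = 0.92 each), and Odr4 (r = 0.96) and Azi2 (r = 0.95) for Cd2ap. They were Sema5a and Cbr1 for Ptpro (r = 0.98 each), R3hcc1l (r = 0.96) and Diaph2 (r = 0.94) for Plce1, and Plscr1 and Cttnbp2nl for Nck1 (r = 0.96 each). The dimmer members had looser matches, with Kif13b (r = 0.82) and Usp27x (r = 0.82) for Magi2, Lelp1 (r = 0.85) and Krtap16-3 (r = 0.84) for Kirrel3, and Ube2e2 (r = 0.75) and Rps4l (r = 0.74) for Trpc6.

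Other genes of the slit diaphragm machinery were read from 5 lists, set beside the percentages of all genes given above. Of 17 tested adhesion and membrane partners, 9 were lower and 0 higher in TdTomato cells at day 4, with a median difference of -0.64. Among them were Kirrel2, a relative of Kirrel (-1.14 ± 0.41, adjusted p = 0.022), Efnb1, an ephrin of the slit (-1.10 ± 0.16), and the junction protein Jup (-1.09 ± 0.43, adjusted p = 0.033). At day 1 the same list had 7 lower and 3 higher, the higher ones including the tight junction protein Tjp1 (1.16 ± 0.13). In EGFP cells at day 7, where none of the 9 members passed, the caveolar protein Cav1, above background on 2 of 4 arrays at day 0, had risen by 3.31 ± 0.50 (adjusted p = 6.9e-05). Endothelium also makes Cav1, and the endothelial marker sum of those EGFP arrays was 11.2 to 15.7, against 12.0 to 17.9 in EGFP cells at day 0. The sum of mesangial and smooth muscle markers was 9.16 to 11.1 on them, against 4.29 to 9.27 in EGFP cells at day 0. Parietal epithelial markers summed to 2.74 to 4.75 on the EGFP arrays of day 7, against 1.23 to 2.51 at day 0. The part of other cells in the Cav1 rise was not tested.

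Genes of tyrosine signalling from nephrin to actin (32 tested) were 15 lower and 3 higher at day 4, with a median of -0.49, and 9 lower and 8 higher at day 1. Pak1, a kinase of actin turnover, was lower by 1.33 ± 0.18 at day 4 (adjusted p = 1.1e-06), while the phosphatase Ptpn6 was higher by 3.72 ± 0.32 (adjusted p = 9.6e-10). Ptpn6 is abundant in blood cells, and the summed level of 9 myeloid markers was 46.5 to 116 at day 4 against 38.5 to 56.8 in TdTomato cells at day 0. Of those markers Lyz2, C1qa and C1qc were not well above background on any TdTomato array at day 0. At day 4 each of the 9 was so on at least 1 TdTomato array. Whether blood cells add to Ptpn6 was not tested. Nck2, the close relative of Nck1, was lower at day 7 (-0.79 ± 0.23, adjusted p = 0.016). At day 1, beside the higher Nck1, the kinase subunit Pik3cb rose by 2.29 ± 0.15 and the adaptor Bcar1 by 1.90 ± 0.26.

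Nephrin endocytosis and turnover genes (24 tested) were 13 lower and 4 higher at day 4, median -0.55. The adaptor Arrb1, which binds nephrin for uptake, was lower by 1.55 ± 0.23 (adjusted p = 4.0e-06) and the protease Ctsl by 1.32 ± 0.24. The dynamin Dnm1 fell at day 1 in TdTomato cells (-1.97 ± 0.37) and rose at day 7 in EGFP cells (4.06 ± 0.37, adjusted p = 3.8e-08). The calcium list (24 tested) had 11 lower and 3 higher at day 4, median -0.41, and 11 lower and 5 higher at day 1. At day 1, when Plce1 did not pass, another phospholipase, Plcd1, rose by 4.83 ± 0.21 (adjusted p = 2.6e-14), and the transcription factor Nfatc1, a target of calcium signals, by 3.38 ± 0.30, while the calcium release channels Itpr3 and Itpr2 fell by 1.98 ± 0.21 and 1.97 ± 0.21. Polarity and scaffold genes (20 tested) were mixed at day 4, with 7 lower and 5 higher and a median of -0.15 that ran from -0.15 to 0.01 over 4 other settings. Among them Magi3, a relative of Magi2, rose by 3.13 ± 0.37 at day 1 (adjusted p = 1.9e-07), and Pard6g was higher by 2.24 ± 0.27 at day 4. Adjusted p-values of these lists come from the same limma fit.

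Podocyte identity genes moved in the same comparisons. Of 16 podocyte markers, 1 of which is Nphs1, 12 were lower in TdTomato cells at day 1, 15 at day 4 and 7 at day 7, with medians of -0.69, -1.08 and -0.56. Endothelial markers were higher for 3 of 13 at day 4 and 8 of 13 at day 7, with medians of 1.09 and 3.36. The day 4 array with the lowest endothelial sum (MC692, 7.80) read 6.20 for Nphs1, and the one with the highest (MC823, 75.3) read 6.41. For Ptpro those arrays read 6.62 and 6.93, and for Plce1 2.05 each. Their proximal tubule marker sums also differed, at 5.16 for MC692 and 229 for MC823. This pair of arrays therefore cannot separate endothelium from other cells, and the remaining genes called at day 4 were not set beside these sums. Whether other cells take part in the fall of these genes was not tested. At day 1 the endothelial sums of 6.84 to 28.9 overlapped those of day 0, while myeloid sums of 84.1 to 266 lay above their day 0 range. Parietal epithelial sums in TdTomato cells also lay above theirs, at 3.86 to 7.89 against 1.15 to 1.90 at day 0.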

How the data were processed

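RNA of 29 sorted podocyte samples was labelled with Cy3 from 0.1 µg and read on 1-colour Agilent arrays. The deposited intensity values are the processed signals of Agilent Feature Extraction 11.5.1.1, per the file headers, background-subtracted per spot and not scaled between arrays. The authors also deposited log2 values per probe, whose scaling and centring are not given in the sources used here. They tracked the scanner files for 27 arrays and, for both day 7 arrays of mouse MC221, the mean of the group, so those columns were left out.

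The log2 signal minus the array's 75th percentile was taken, outlier spots were dropped, and spots of a probe were averaged. Probes well above background on at least 3 of 29 arrays were kept (38196 of 55681). RefSeq accessions named 26582 probes and left 29099 unnamed. Each gene was represented by its brightest probe, for 15628 genes in all, and 50 single values were missing and stayed out of the fit. limma 3.58.1 in R 4.3.3 fitted 8 group means over all 29 arrays, with 13 comparisons and Benjamini-Hochberg adjustment over all genes at 0.05. All adjusted p-values are from limma, and those of the main fit measure the spread between mice of a group. That fit took both arrays of a mouse as independent. For comparisons of the populations and the interactions its p-values therefore do not measure the spread of same-mouse differences. Fold changes and list counts come from that fit. Python 3.11.15 with pandas 2.3.3, numpy 2.4.6 and matplotlib 3.10.9 made the rest. The fit was also run on simulated data with independent noise on every array. That run could not check p-values where arrays share a mouse.

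Mouse numbers mark the same animal in both populations. Same-mouse deviations from the group means correlated across genes at 0.04 (MC823) to 0.64 (MC122). The consensus correlation within mice that limma estimated, a different measure, was 0.60. The mouse block was random for changes over time and fixed for comparisons of the populations. Slide equals scan, and both arrays of a mouse lie on 1 slide. Slides 1, 3 and 4 hold all 4 days, while slide 2 holds days 0, 1 and 4 and no day 7 array. The TdTomato arrays of day 7 lie on slides 1 and 4. The files hold no mean signal, so the normexp alternative (offset 50) used median signals.

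The 9 genes, the pathway lists and the marker lists were chosen with earlier results of these data known. Named list genes are those called, at most 4 per list and comparison by size of the difference. Other cell lists (mesangium, parietal epithelium, tubule, lymphocyte, erythrocyte) are given in the closing section. The number of arrays limits the precision, and depth does not apply. Alternatives were normexp, quantile normalization, other filters, outlier spots kept, mean of probes, the authors' values, slide and mouse blocks, only the groups compared, MC221 left out, and each array left out in turn.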

Additional observations from a re-analysis of the deposited data

Results flagged for a closer look

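Within groups of 4 arrays, 1 array stood apart for 5 of the 54 gene and group pairs tested, and chance alone marks about 1 in 20. These were Kirrel in EGFP cells at day 7, where MC824 was lowest (5.34), and Plce1 in the same array (2.88). Nck1 was lowest in MC221 of that group (1.05). Magi2 was lowest in MC742 of TdTomato cells at day 0 (-2.27), and Ptpro was highest in MC541 of TdTomato cells at day 1 (6.84).

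The change from day 0 differed between TdTomato and EGFP cells by the interaction for 7 results. At day 1 these were Ptpro (-1.43) and Nck1 (1.02). At day 4 they were Nphs1 (-1.27), Ptpro (-1.27), Plce1 (-1.23), Kirrel (-1.13) and Cd2ap (-0.94). All are log2 differences from the limma fit.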

How the results depend on the processing

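Of 2264 results for the 9 genes under 10 other settings, without both MC221 arrays and with each of 29 arrays left out, 2196 kept their side of the threshold, 29 lost the call, 39 gained it and 0 called results reversed. Those 2196 include 105 that changed sign with no call on either side. In EGFP cells at day 7 the count of 0 called genes became 1 with normexp, quantile normalization and the slide as a block (Nphs1 each time), 1 with the mean of a gene's probes (Kirrel), 1 with the authors' values (Trpc6) and 2 without both MC221 arrays (Nphs1 and Trpc6). Leaving out 1 array gave 0 to 1. In TdTomato cells at day 7 the count of 3 became 1 (Nphs1) with quantile normalization, the authors' values and without both MC221 arrays, and 0 with only the groups compared. It became 4, with Cd2ap added, under normexp, the strict filter, the slide block and the mouse block. Leaving out 1 array gave 0 to 3, and where it left 1 day 7 array, that array was assumed to vary like the other groups. With the mouse as replicate block the count of 0 between populations at day 7 became 1 (Cd2ap). Beside the calls named here and in the text, the mouse block changed that of the Trpc6 interaction at day 4, where TdTomato cells were not above background, and no other. The authors' values lack both MC221 columns and so hold 1 TdTomato array at day 7. With them, an effect of the authors' scaling at day 7 cannot be told apart from the loss of MC221. The cause of these shifts was not tested.

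Counts over all genes moved by more than 1.5 times in these cases, where the authors' values again lack both MC221 arrays. Against 3027 in TdTomato cells at day 7 they were 1469 with the authors' values, 1847 with only the groups compared, 4979 with the slide as a block, 1464 without TdTomato MC221, 1483 without both MC221 arrays and 1502 without MC791. Between populations at day 7 the 1092 became 630 with the authors' values, 1689 with the mouse block, 2229 with the slide block, 617 without TdTomato MC221, 637 without both MC221 arrays and 532 without TdTomato MC791. In EGFP cells the 93 of day 4 became 55 with normexp, 28 with only the groups compared, 277 with the slide block, 44 without day 0 MC731, 51 without day 4 MC822 and 59 without day 4 MC823, the 1134 of day 7 became 2601 with the slide block, and the 4 of day 1 became 0 with normexp and with only the groups compared. That count of 4 was also 0 when the day 1 array of MC542 was dropped, and 0 or 2 when any single day 0 array was: 0 for MC742 and MC731, 2 for MC753 and MC122. The interaction at day 7 gave 420, and 173 with normexp, 705 with the mouse block and 844 with the slide block. The TdTomato day 7 split of 1704 higher and 1323 lower was 1351 and 1683 with normexp, 1099 and 370 with the authors' values and 2250 and 2729 with the slide block. The split between populations at day 7 was 967 and 125, and 803 and 523 with normexp. Normexp moved the median of all genes in TdTomato cells at day 7 from -0.14 to -0.02. Dim signal limits Trpc6, and 2 arrays limit day 7.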

Other observations

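Markers of other kidney and blood cells gave these values in TdTomato cells against day 0. Parietal epithelial markers were higher for 2 and lower for 1 of 7 at day 4 (median 1.18). At day 7 they were higher for 3 of 7 (median 2.10). Their summed linear levels were 1.15 to 1.90 at day 0, 3.86 to 7.89 at day 1, and 2.41 to 4.32 at day 4. The day 7 arrays gave 4.84 and 5.35. Mesangial and smooth muscle markers were higher for 2 and lower for 1 of 11 at day 4 and higher for 3 of 11 at day 7 (medians 0.03 and 1.03). Distal nephron markers were higher for 3 and lower for 1 of 7 at day 4 and higher for 2 of 7 at day 7, with sums of 3.59 and 61.6 on the day 7 arrays against 2.35 to 5.13 at day 0. Proximal tubule markers were higher for 1 of 13 at both days, with sums of 5.16 to 229 at day 4. Lymphocyte markers were higher for 3 and lower for 1 of 5 at day 4, and of 5 erythrocyte and platelet markers 1 was higher at days 4 and 7. Myeloid markers were higher for 2 of 9 at day 1, 3 of 9 at day 4 and 2 of 9 at day 7. Among them Ptprc, C1qc and Adgre1 were not well above background on either day 7 array. At day 1 none of the distal nephron markers passed. The part of these cells in the values of the slit diaphragm genes was not tested.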
